A study of Mus musculus with 2 samples.

Results

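Mir322, Mir503, Mir351, Mir542 and Mir450b are neighbouring microRNA (miRNA) genes on the mouse X chromosome, and their levels were measured by microRNA sequencing in the intestine of newborn mice. The 5 genes were found by matching the identifiers of the count rows, without their version, to mouse GENCODE on GRCm38. They were 5 of the 1973 miRNA genes counted, and all 5 had at least 10 counts in each library, as did 314 genes in all (called detected here). They came from 2 B6NCrl littermates aged 0 days after birth, here pup 1 and pup 2, with 1 library each. The labels name no treatment, altered allele or second group, give intestine as the tissue with no segment, and state that sex was not collected. The libraries held 3567658 counts in pup 1 and 4683939 counts in pup 2 on the strand to which miRNA genes are annotated. A level in CPM is the number of counts of a gene in 1000000 such counts, and every ± is an SD over the 2 pups.

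A miRNA is cut from a hairpin in a longer transcript, and the mature strand guides silencing of messenger RNAs that pair with its seed, the bases 2 to 8 from its 5′ end. Neighbouring hairpins such as these are commonly made from a shared primary transcript, yet each is then processed and turned over on its own. MiR-322, the mouse counterpart of human miR-424, and miR-503 belong to the wider miR-15 and miR-16 group, whose members repress cell-cycle genes such as cyclins and Cdc25a, and both are known to rise as muscle precursor cells leave the cell cycle. MiR-351 carries the seed of miR-125. MiR-542-3p represses the apoptosis inhibitor survivin in human cells. MiRNA counts of a whole tissue mix all its cells, so fewer cells of a type and less RNA per cell cannot be told apart.

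The mature sequences below, from RefSeq (GRCm38.p6), are shown because the seeds decide with which other miRNAs of the gut the members share targets. They are written 5′ to 3′ with the seed in capitals, first the 5p arm of each member (for Mir542 the 3p arm, whose target is named above) and then the neighbour miR-450a-5p.
miR-322-5p: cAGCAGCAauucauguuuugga
miR-503-5p: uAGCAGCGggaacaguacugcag
miR-351-5p: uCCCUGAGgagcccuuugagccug
miR-542-3p: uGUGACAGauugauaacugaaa
miR-450b-5p: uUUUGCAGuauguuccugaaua
miR-450a-5p: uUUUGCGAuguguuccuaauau

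The 10 mature miRNAs of the 5 members held 10 different seeds. MiR-322-5p and miR-503-5p share the first 6 bases of the seed and differ at its last base (A8G, the miR-322-5p base first, positions counted from the 5′ end). Over 22 aligned positions they were identical at 11. The seed of miR-322-5p occurs in 10 mature mouse names of the RefSeq table, itself included, whereas that of miR-503-5p occurs in no other. MiR-450b-5p and miR-450a-5p are identical over the first 6 bases and then differ inside the seed (A7G and G8A, the miR-450b-5p base first). On the 3p side, miR-450b-3p and miR-450a-1-3p are identical over the first 18 bases and share a seed. The seeds of miR-542-3p and miR-450b-5p occur in no other mature mouse name of the table.

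For comparison, 4 miRNAs that share a seed with a member follow in the same notation.
miR-15a-5p: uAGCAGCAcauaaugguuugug
miR-16-5p: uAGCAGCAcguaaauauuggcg
miR-125a-5p: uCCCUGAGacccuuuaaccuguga
miR-125b-5p: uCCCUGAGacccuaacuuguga

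MiR-322-5p differs from miR-15a-5p at the first base (C1U), keeps the seed, and is identical to it at 15 of 22 positions. MiR-351-5p is identical to miR-125a-5p and to miR-125b-5p over the first 8 bases, and to miR-125a-5p at 10 of 24 positions in all. The counts were made per gene, so the 5p and 3p arms of a hairpin could not be separated in what follows.

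In GENCODE M21 on GRCm38, of which mm10 is another name, the cluster lies on the minus strand of the X chromosome. In the direction of that strand its hairpins run from Mir322 to Mir450b and span 6353 nt. A common transcript was not measured here. Mir322 (ENSMUSG00000065418.1) lies at chrX:53054255-53054349 and Mir503 (ENSMUSG00000076122.1) at chrX:53053984-53054054, a gap of 200 nt. Mir351 (ENSMUSG00000065503.1) follows after 630 nt at chrX:53053255-53053353. A wider gap of 3767 nt, which holds the long noncoding RNA gene Gm28730 of the same strand, separates it from Mir542 (ENSMUSG00000076140.1) at chrX:53049403-53049487. Mir450b (ENSMUSG00000076050.1) ends the cluster at chrX:53047997-53048078. Between Mir542 and Mir450b lie Mir450-2 and Mir450-1, the paired genes of miR-450a, which are neighbours of the 5 members. The noncoding gene C430049B03Rik of the same strand ends 696 nt before Mir322. In this annotation, 0 of the 7 hairpins lay inside the span of a longer gene, so none was exonic, intronic or in a UTR of a host.

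The hairpin of Mir322 is the source of most counts of the cluster, and it is shown here with its 2 mature arms in capitals (RefSeq, GRCm38.p6, minus strand).
Mir322 hairpin: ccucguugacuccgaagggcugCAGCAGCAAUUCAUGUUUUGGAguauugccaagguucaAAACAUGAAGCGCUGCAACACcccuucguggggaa

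Mir322 was by far the most abundant gene of the cluster in the newborn intestine. It had 29640 counts in pup 1 and 35761 in pup 2, that is 8308 and 7635 CPM, with a mean of 7971 ± 476 CPM (n = 2). This placed it at rank 26 of the 314 detected genes by mean level, at rank 26 in pup 1 and rank 27 in pup 2. Of the detected genes, 81 share a run of at least 20 nt with another miRNA hairpin, on one strand or the other. Those with a copy elsewhere can lose reads that map to more than 1 place, so the true rank of Mir322 may be lower. Both pups thus held Mir322 far above the median detected gene, which averaged 145 CPM.

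Mir351, with the miR-125 seed, came second. Its 4992 counts in pup 1 and 6448 in pup 2 gave 1399 and 1377 CPM, a mean of 1388 ± 16.0 CPM at rank 72. Mir542 followed with 1330 and 1681 counts, or 373 CPM in pup 1 and 359 CPM in pup 2, a mean of 366 ± 9.83 CPM at rank 115. Mir503, which lies closest to Mir322 and shares most of its seed, had only 1000 and 1287 counts, or 280 CPM in pup 1 and 275 CPM in pup 2, a mean of 278 ± 3.91 CPM at rank 126. Mir450b was the lowest member, with 339 and 429 counts, or 95.02 CPM in pup 1 and 91.6 CPM in pup 2, a mean of 93.3 ± 2.43 CPM at rank 177. The order Mir322, Mir351, Mir542, Mir503, Mir450b was the same in both pups, and the ranges of neighbouring members in that order did not overlap. The highest member averaged 85.4 times the level of the lowest.

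The miR-450a genes stood lower still. Mir450-2 had 37 and 53 counts (10.4 CPM in pup 1 and 11.3 CPM in pup 2) and Mir450-1 had 38 and 36 counts (10.7 CPM in pup 1 and 7.69 CPM in pup 2). Their ranges overlapped, and which of these genes was higher differed between the pups. Their hairpins share a run of 25 nt, and multimapped reads (30.0% ± 0.382 of all reads) entered no gene's count. Their counts are therefore lower limits. The members share shorter runs with any other miRNA hairpin, 19 nt for Mir450b with Mir450-1, 13 nt for Mir322 and Mir351, 12 nt for Mir503 and under 12 nt for Mir542. On the opposite strand all 7 genes had 0 counts in both libraries.

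**Figure D1:**
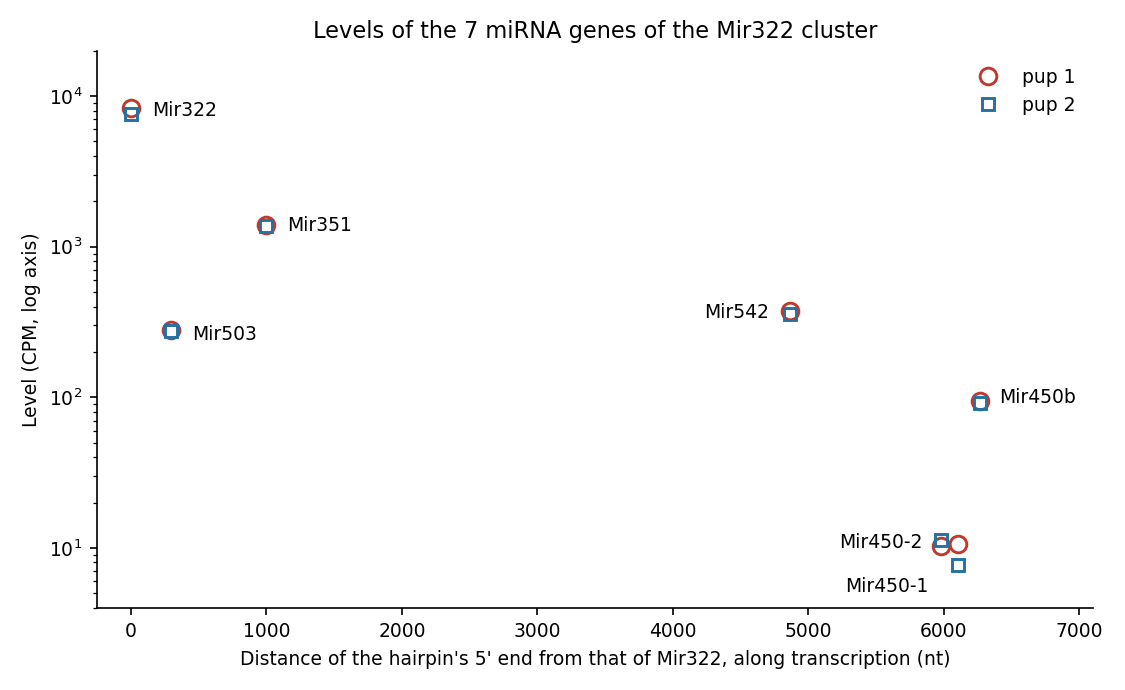
Level of each miRNA gene of the cluster in CPM (log axis) against the distance in nt of its hairpin's 5′ end from that of Mir322 along transcription, with a circle for pup 1 and a square for pup 2. Mir322 is highest and Mir450-2 and Mir450-1 are lowest, while Mir503 beside Mir322 lies below Mir351 and Mir542 further along.

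Together the 5 members held 1.05% of miRNA counts in pup 1 (Wilson 95% interval 1.04 to 1.06) and 0.974% in pup 2 (0.965 to 0.983), a mean of 1.01% ± 0.0508. Intervals here cover counting error within a library alone, and no difference between animals. PCR copies were not told apart by molecular identifiers, so the intervals may be too narrow even for counting error. Within the members, Mir322 took 78.9% ± 0.742 of counts, Mir351 13.8% ± 0.534, Mir542 3.63% ± 0.0851, Mir503 2.75% ± 0.0998 and Mir450b 0.925% ± 0.0225. The 3 genes before the wide gap, Mir322, Mir503 and Mir351, held 95.3% of the 7-gene total in pup 1 and 95.2% in pup 2. The 4 genes after it held 4.67% and 4.81%. They include Mir450-1 and Mir450-2, whose counts are lower limits, so the share of these 4 genes is a lower limit in that respect.

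Same-strand miRNA genes whose starts follow each other within 10 kb formed 39 groups with at least 2 detected genes. By summed level the Mir322 group, with 10116 ± 510 CPM over 7 genes, ranked 11 among them. Of the 7 groups with at least 5 detected genes, the share held by the leading gene was highest in the Mir322 group, 78.8% against a median of 39.0% over the 7. The next in that order, the group led by Mir17, had 49.3%. In groups with fewer detected genes the leading share ran from 51.8% (led by Mir296) to 99.8% (led by Mir99a). A high leading share is therefore not particular to the Mir322 group. These shares are a description of 2 libraries, and differences in how well each miRNA is captured enter them.

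Levels of close neighbours were then compared within libraries, across all 313 pairs of detected same-strand genes at most 10 kb apart, with the quasi-likelihood test of edgeR and a term for the pup. All 10 pairs of members differed at an adjusted p under 0.05, but so did 93.6% of all pairs, so unequal counts are not particular to these genes. The gene earlier in transcription was the higher in 8 of the 10, where it was so called in 52.4% of all pairs, and 4 of the 8 have Mir322 in common. Mir322 exceeded Mir351 by 2.57 in pup 1 and 2.47 in pup 2 on the log2 scale (5.74-fold; edgeR adjusted p = 4.76e-06), and Mir542 by 4.48 and 4.41 (21.8-fold; adjusted p = 8.11e-07). Beside its nearest neighbour Mir503 it was 28.7-fold higher (adjusted p = 7.48e-07), and beside Mir450b at the far end 85.3-fold higher (adjusted p = 6.81e-07). Among the 5 members the largest ratio thus joined the first and the last along the strand.

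The smallest difference was between Mir542 and Mir503, the neighbours in the order of levels. Mir542 was 1.32-fold above Mir503, with a log2 ratio of Mir503 over Mir542 of -0.41 in pup 1 and -0.39 in pup 2 (edgeR adjusted p = 0.00446). Mir351 was 5.00-fold above Mir503 (adjusted p = 4.93e-06) and 3.79-fold above Mir542 (adjusted p = 1.13e-05). Mir542 was 3.92-fold above Mir450b (adjusted p = 2.62e-06). Mir450-2 and Mir450-1 did not pass against each other (log2 ratio 0.28; adjusted p = 0.345), which does not show that they are equal. Over the member pairs the median absolute log2 ratio was 2.42, against 2.55 over all pairs. Pairs share genes and are not independent, and the p-values rest on 2 littermates. Differences in how well each miRNA is captured also enter all these pair ratios. The test cannot tell them from differences in level, which matters most for a ratio as small as 1.32-fold.

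**Figure D2:**
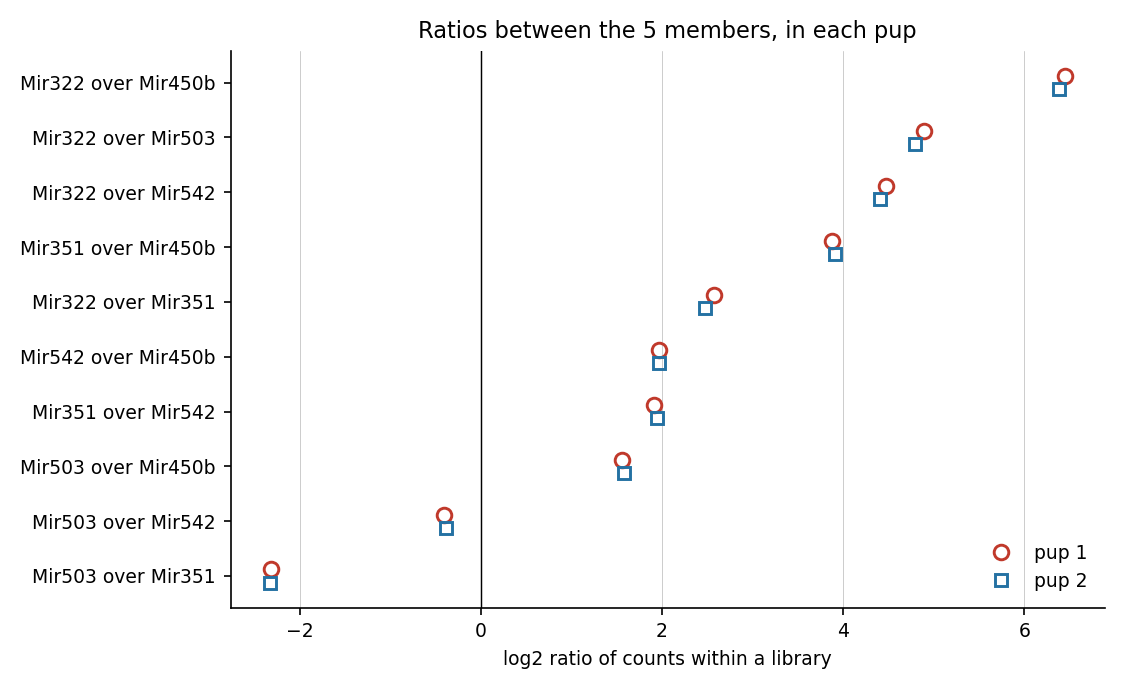
Log2 ratio of counts within a library for the 10 pairs of members, with a circle for pup 1 and a square for pup 2. In each pair the points of the pups lie close together, and the ratio spans from -2.32 for Mir503 over Mir351 to 6.45 for Mir322 over Mir450b in pup 1.

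The ratios between members were nearly equal in the littermates. The SD of the log2 ratio over the pups had a median of 0.022 in the 10 member pairs, with a range of 0.0013 to 0.070. The other 207 pairs in which every gene had at least 100 counts in each library had a median of 0.11, with a range of 7.57e-05 to 0.73. Pairs with Mir322 had the larger values among the members, 0.047 to 0.070, and the 6 pairs without it had 0.0013 to 0.022. Counting error limits what such small values show. The log2 ratio, pup 1 over pup 2, had an exact binomial interval of -0.20 to 0.22 in Mir450b and -0.093 to 0.12 in Mir542. Both intervals are far wider than the SD of 0.0013 for the pair of these genes. So close a match can therefore be partly luck in 2 libraries. The member pairs are built from only 5 genes, and the other pairs were not matched to them in counts. The difference between these medians was therefore not tested.

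Between the littermates, Mir322 was slightly higher in pup 1 and the other members did not pass the test. For each detected gene a 2-sided exact binomial test, scaled by TMM, set the counts of the libraries against each other. It sets 2 animals against counting noise and holds no replicate of either. Mir322 had a log2 ratio, pup 1 over pup 2, of 0.079, or 1.06-fold (95% interval 1.04 to 1.07; adjusted p = 1.74e-11 by the exact binomial test over 314 genes). It was the single member called of 5, where 41.1% of the 314 genes were called, 19.7% as higher and 21.3% as lower in pup 1. With 29640 and 35761 counts its interval was narrow, and the difference itself was below the median absolute log2 ratio of all tested genes, 0.18.

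For the other members the exact 95% intervals bound the difference. The log2 ratio of Mir351 was -0.019 (interval -0.073 to 0.034; above 0, at 0.024, with total-count scaling). That of Mir503 was -0.014 (-0.13 to 0.11; 0.029 with total-count scaling). Mir542 had 0.012 (-0.093 to 0.12) and Mir450b 0.010 (-0.20 to 0.22), and both fell below 0, at -0.030 and -0.031, with upper-quartile scaling. Mir450-1, with 0.43 (-0.27 to 1.13), and Mir450-2, with -0.17 (-0.82 to 0.46), had too few counts to place them. The median over the 5 members was 0.010 and that over all 314 genes was -0.0022.

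A change of scaling shifts the ratios of all genes by the same amount, at most 0.043 in the median here. Of the 129 genes called, 62 were higher and 67 lower in pup 1 (48.1% higher), against 74 and 53 with total-count scaling (58.3%) and 46 and 84 with upper-quartile scaling (35.4%). Mir322 stayed above 0 and was called under each of these scalings, with log2 ratios of 0.12 and 0.037.

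**Figure D3:**
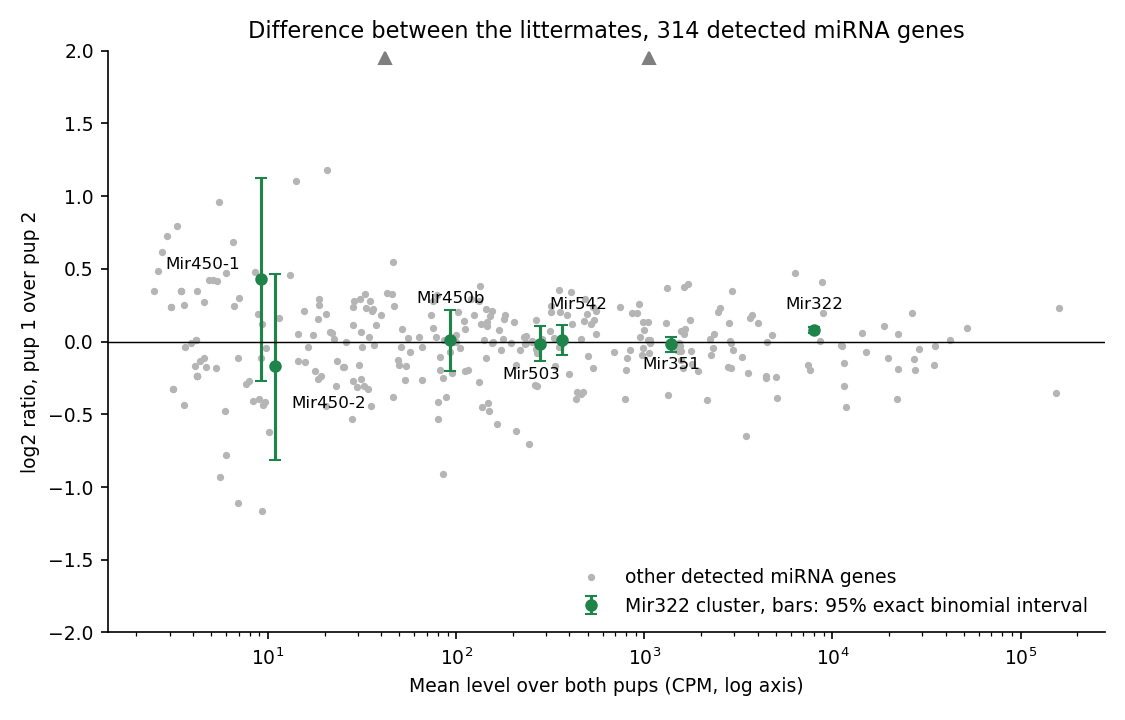
Log2 ratio, pup 1 over pup 2, against mean level in CPM (log axis) for 314 detected miRNA genes, with the 7 genes of the cluster in green and their exact binomial 95% intervals as bars. Triangles at the upper edge mark 2 genes beyond the axis, Mir196b and Mir196a-2. The 5 members lie between -0.019 and 0.079, and the intervals widen to Mir450-1 and Mir450-2 with fewer than 60 counts per library.

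The spread of the pup ratios within the Mir322 group depended on its genes of few counts. Over genes with at least 100 counts in each library, 5 groups held at least 5 genes, and the log2 ratios of the Mir322 members spanned 0.098 from lowest to highest. The spans in the other groups were 0.31 for the group led by Mir467d (6 genes), 0.32 for that of Mir127 (9 genes), 0.76 for that of Mir532 (5 genes) and 0.85 for that of Mir411 (24 genes). The groups differ in their number of genes and in their counts, and the difference between these spans was not tested. With Mir450-1 and Mir450-2 the Mir322 group spanned 0.60, above the median of 0.54 over the 7 groups with at least 5 detected genes. In the X-linked group of Mir532, Mir188, Mir362, Mir501 and Mir500 of the Clcn5 gene, which matches the members in number and has between 243 and 1632 CPM per gene, 3 of 5 genes were called, all lower in pup 1 (21.3% of all tested genes were). The count was 2 lower and 1 higher with total-count scaling, and 4 lower with upper-quartile scaling. Mir362 had the largest ratio there, -0.70 (exact binomial adjusted p = 1.95e-25). The group summed to 4134 CPM in pup 1 and 4248 CPM in pup 2, below the members' 10455 and 9737 CPM. The X-linked miR-106a-363 cluster summed to 805 and 890 CPM over 6 genes.

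Mir322 and Mir503 had about as many counts as all other genes of a list built around AGCAGC. These are the bases 2 to 7 common to the 5p arms of miR-15, miR-16, miR-195, miR-322, miR-497 and miR-503. The counts are of genes, both arms together, and not of that seed alone. Reads of miR-16-5p that map to both Mir16 genes are not among them. Of the 10 genes listed, 9 were among the genes counted and 7 were detected. Mir497b, which faces Mir497 on the other strand, was listed too, but its mature miRNA holds another seed in RefSeq. Mir322 and Mir503 held 52.9% of its counts in pup 1 (Wilson 95% interval 52.5 to 53.3) and 49.7% in pup 2 (49.4 to 50.1), a mean of 51.3% ± 2.25. Mir322 alone held 49.6% ± 2.25 and Mir503 1.73% ± 0.00034.

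Among the other genes of the list Mir15a was highest, with 3238 CPM in pup 1 and 3377 CPM in pup 2, so that Mir322 lay above it in both pups. Mir16-1 averaged 1941 ± 155 CPM, Mir195a 1057 ± 18.5, Mir15b 1053 ± 92.5 and Mir16-2 461 ± 71.4. Mir16-1 and Mir16-2 share a run of 23 nt and make the same miR-16-5p of 22 nt. Reads of this arm, which holds the seed, can map to both genes and then enter no count. The counts of both genes are therefore lower limits. The share of Mir322 and Mir503 in the list is an upper limit by an unknown amount. Leaving Mir16-1 and Mir16-2 out moves the share further up, to 60.3% ± 1.501. Mir195b had 0 counts, which allows up to 0.841 CPM in pup 1 and 0.640 CPM in pup 2. Mir497b had 1 count in each library, and Mir497 was not analysed here.

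The direction between the pups was not shared across the list. Mir322 and Mir15b passed as higher in pup 1, at 0.079 and 0.14 on the log2 scale. Mir15a, Mir16-1, Mir16-2 and Mir195a passed as lower, at -0.10, -0.21, -0.36 and -0.079, with adjusted p = 0.0307 for Mir195a by the exact binomial test (0.411 with total-count scaling). Of the 7 detected genes 6 were called, where 41.1% of all tested genes were. Each of the 7 lay above the median level of detected genes, and small differences pass the test at such counts.

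Mir351 took a large part of the counts of the miR-125 seed list as well. It held 42.0% of the counts of 4 genes in pup 1 (Wilson 95% interval 41.1 to 42.9) and 40.9% in pup 2 (40.1 to 41.7), a mean of 41.5% ± 0.785. Mir125a was a little higher, with 1516 CPM in pup 1 and 1608 CPM in pup 2, and its range did not overlap that of Mir351. Mir125b-2 averaged 254 ± 5.31 CPM and Mir125b-1 143 ± 18.7 CPM. Mir125b-1 and Mir125b-2 share a run of 24 nt with each other and make the same miR-125b-5p of 22 nt, the arm with the seed. Reads of it that map to both genes enter no count. So Mir125b-1 and Mir125b-2 are undercounted by an unknown amount, and the share of Mir351 is an upper limit in that respect. Without Mir125b-1 and Mir125b-2 this share was 47.1% ± 1.32.

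**Figure D4:**
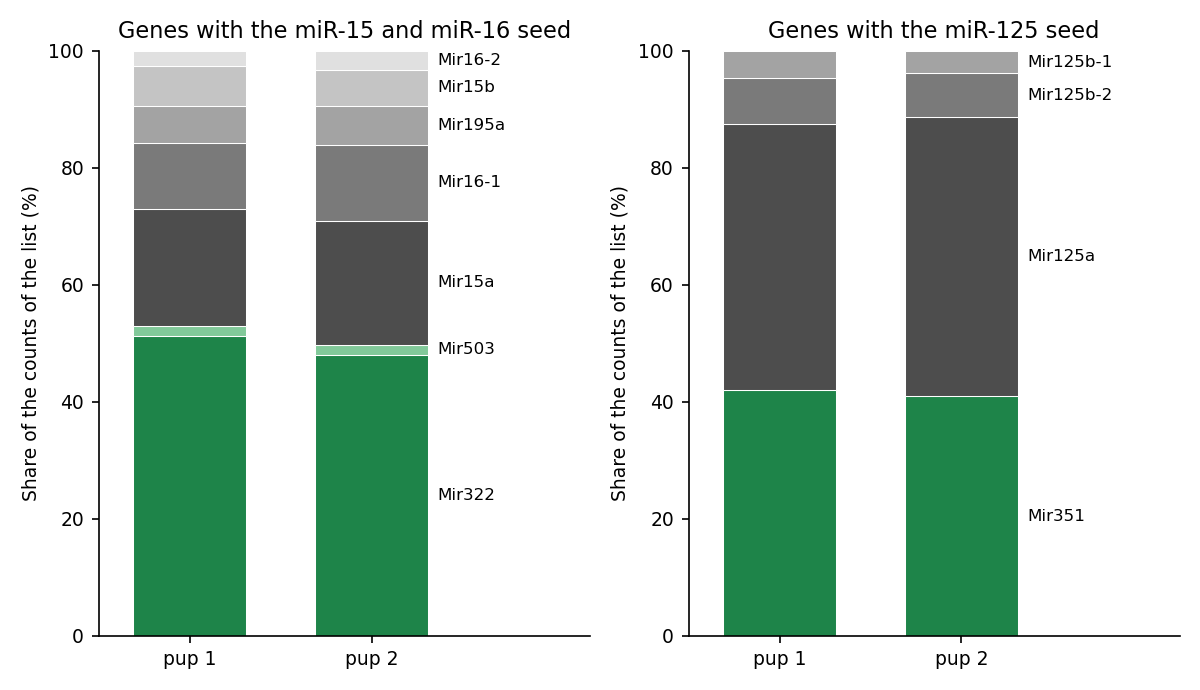
Share (%) of the counts of each seed list held by its genes in pup 1 and pup 2, with the members of the cluster in green and the other genes in grey. Mir322 fills about as much of its list as the other genes together, with the Mir16 genes undercounted. Mir351 lies just below Mir125a in its own list, with the Mir125b genes undercounted.

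The genes most alike in level were found by the Euclidean distance in log2(CPM + 1) over the 2 libraries. The 3 nearest to Mir322 were Mirlet7d (distance 0.16; 8710 CPM in pup 1 and 8448 CPM in pup 2), Mir17 (0.22; 7176 and 7964 CPM) and Mir31 (0.22; 7131 and 7724 CPM). Nearest to Mir351 was Mir484 (0.14), to Mir542 Mir374b (0.046), to Mir503 Mir3071 (0.061) and to Mir450b Mir495 (0.058). Mir374b and Mir3071 share runs of at least 40 nt with Mir374c and Mir136 on one strand or the other. The search did not tell a copy elsewhere from a gene facing the same place, so whether their counts are lowered is not known. With 2 libraries this likeness is one of level and says little about pattern.

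The marker miRNAs of the labelled tissue were present in both libraries. All 9 miRNAs of intestinal epithelium were detected and summed to 28.7% of counts in pup 1 and 33.3% in pup 2. Among them Mir194-1 and Mir194-2 share a run of 22 nt, so their counts are lower limits. All 9 epithelial miRNAs were called lower in pup 1, where 21.3% of all tested genes were, with log2 ratios of -0.39 to -0.033. Scaled by total counts, 7 stayed below 0 with a call, and Mir429 turned to 0.010. Of the smooth muscle and mesenchyme miRNAs Mir143 was called higher in pup 1, as was Mir322, at 0.23, and Mir145a was not called, at -0.0040 (called at 0.039 with total-count scaling and at -0.046 with upper-quartile scaling). Endothelial Mir126a was called higher, at 0.091. The striated muscle list, relevant because miR-322 and miR-503 are known from muscle cells, summed to 347 CPM in pup 1 and 355 CPM in pup 2 over 8 genes used here. Of these 3 were detected, and Mir1a-1, Mir133a-1 and Mir133a-2 were at 0, although each shares a run of at least 28 nt with a copy, so that a count of 0 there does not show absence. Liver Mir122 was at 28.9 and 12.4 CPM, and the pancreas list summed to 0.561 and 1.07 CPM, near the floor of 3 counts. The list of pluripotent cells and placenta summed to 16.5 and 11.96 CPM. The part of these markers in the levels of Mir322 and its neighbours was not tested. The libraries differed far more in 2 other genes. Mir196b had 7337 counts in pup 1 and 310 in pup 2 (30.2-fold higher in pup 1 with TMM). Mir196a-2 had 272 and 35 (9.90-fold). The labels give no segment of the intestine, and whether the samples of the pups held the same segments was not tested.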

How the data were processed

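MicroRNA sequencing measured small RNA of the intestine of 2 newborn littermates, with 1 library each. The authors deposited raw counts of reads for each miRNA gene. They used mm10 and an annotation named M4, per the notes deposited beside the counts. Which aligner and counter they ran is not given in the sources used here. Of 3 count columns in a library, the sums show the first to be both strands together, the others the annotated and the opposite strand. Rows that name no gene (4) were left out of library sizes and every test. They hold the unmapped reads (9.75% ± 0.562) and the multimapped reads, so near-identical copies are undercounted.

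Symbols and coordinates came from GENCODE M21 (GRCm38), which held 1894 of 1973 identifiers. The other 79 had no match. CPM used the annotated strand. Libraries were compared by exact binomial tests (scipy 1.17.1) at TMM library sizes, with Benjamini-Hochberg adjustment over all 314 detected genes and a threshold of 0.05. Pairs were fitted with edgeR 4.0.16, with limma 3.58.1 and DESeq2 1.42.0 as alternatives. Both tests were also run on simulated data. The counts simulated for the binomial test held counting noise alone, so that run cannot show how it behaves with differences between animals. Those for the pairs were drawn independently, with the same spread for all pairs. Other scalings, count minimums, denominators and strand settings were tried. Shared runs of at least 12 nt were searched over all miRNA hairpins, on both strands, up to 40 nt. The genes named are the 7 of the cluster, 2 seed lists, 2 X-linked clusters and the genes nearest in level. Groups led by other genes, Mir6342, Mir6353, Mir6419, Mir6367, Mir6394 and the other X-linked genes of high level were chosen for mention from their values. So were Mir196b and Mir196a-2. The members and lists were chosen with earlier results of these data known.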

Additional observations from a re-analysis of the deposited data

Results flagged for a closer look

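The row of Mir497b, whose own mature miRNA does not hold the AGCAGC seed, held 1840 counts in pup 1 and 2521 counts in pup 2 on the strand opposite to its annotation, outside the counts used above and above the 3 counts that a count of 0 allows. On its own strand it had 1 count in each library. Mir497, which carries that seed, faces Mir497b on the other strand and shares at least 40 nt with it. With strand ignored, so that these reads enter the list, Mir322 and Mir503 held 49.7% ± 2.25 of it.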

How the results depend on the processing

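The share of counts held by the 5 members, 1.01%, was 0.565% of all reads, 1.48% without the 2 highest genes and 0.976% with strand ignored. Leaving out either of the 2 pups returns the share of the other, 0.974% or 1.05%, and is no separate check. Without list members that share a run of 20 or more nt, the share of the AGCAGC seed list held by Mir322 and Mir503 was 60.3% and that of the miR-125 seed list held by Mir351 was 47.1%. Over the whole lists, the single pups gave 49.7% and 52.9% for the former share and 40.9% and 42.0% for the latter, as above. A change of denominator moves such shares by construction. The count of genes called between the pups, 129, lay between 118 and 136 under the other scalings, count minimums and strand setting, and was 10 when at least a 1.5-fold difference was also required, which was met by 0 of the members. The ratio of Mir322 kept its direction and its call under these scalings, minimums and strand setting (adjusted p from 5.45e-26 to 0.00291, exact binomial). With total-count scaling Mir503 and Mir351 turned to 0.029 and 0.024, and with upper-quartile scaling Mir542 and Mir450b turned to -0.030 and -0.031. All member pairs kept their direction and their calls in 8 alternatives, 3 of the 10 pairs being among the consecutive genes. With no replicate block, where the pup was not fitted, 93.6% of all pairs were called, and the share was 88.1% to 94.3% over the alternatives. Mir450-1 and Mir450-2, with fewer than 60 counts per library, are limited by these few counts and by reads of their common miR-450a-5p that map to both.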

Other observations

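Across the X chromosome, 36 of 120 miRNA genes were detected, and they held 2.98% of miRNA counts in pup 1 and 2.86% in pup 2. The 5 members held 34.5% ± 0.707 of these X-linked counts. That share is an upper limit in so far as other X-linked genes lose multimapped reads. Mir92-2 and Mir19b-2, for example, share runs of 22 and 25 nt with a copy. By these counts Mir322 was the highest X-linked gene, followed by Mir98 of the let-7 family (4788 ± 203 CPM), Mir652 (3669 ± 362 CPM) and Mirlet7f-2 (2273 ± 56.7 CPM). Mirlet7f-2 shares a run of 22 nt with Mirlet7f-1, so its level is a lower limit and its place in this order is uncertain. Mir351 was the eighth, close to Mir361 (1537 ± 22.7 CPM).

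The wider seed groups in the RefSeq table added no counts. Mir6342, Mir6353 and Mir6419 share the seed of miR-322-5p, and Mir6367 and Mir6394 that of miR-351-5p, and all 5 genes had 0 counts in both libraries, which allows up to 0.841 CPM in pup 1 and 0.640 CPM in pup 2.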
